A study of Mus musculus with 9 samples.

Results

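Homologous recombination and the Fanconi pathway are represented here by 34 mouse genes of somatic DNA repair, listed by symbol with meiosis-only genes left out. A gene counted as measured where the RefSeq accession of an array probe gave its symbol. By that route 33 of the 34 genes had a probe, with 44 of the 39364 probes used, and Rad51c had none and is not analysed further. All 33 were well above background on each of the 9 arrays, so the filter on dim genes removed none of them. They are 33 of the 20443 genes or identifiers tested, out of 32450 on the array.

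Homologous recombination repairs a broken chromosome by copying the intact sister. The broken ends are trimmed to single strands, BRCA proteins help to coat them with a protein filament, and further partners help it invade the matching duplex. The Fanconi pathway deals with crosslinks between the strands: a core complex with ubiquitin ligase activity marks the FANCD2-FANCI clamp, which brings in nucleases and the recombination proteins. In mice, loss of Fanconi genes depletes germ cells, and PGCs (primordial germ cells, the embryonic precursors of sperm and eggs) are known to be sensitive to defects of this pathway.

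The study compared transcripts of 3 groups of sorted cells, each on 3 one-colour arrays from replicates that its design text calls biological. PGCs carried an Oct4ΔPE-GFP transgene (MCH x C57BL6/J) and were sorted for GFP out of male genital ridges at E13.5. Max knockdown cells were VV3 embryonic stem (ES) cells, a single male line on a 129SV background with a Venus reporter under the Vasa (Ddx4) promoter, taken 3 days after Max siRNA and sorted for Venus. Control cells were the same line 3 days after the AllStars non-silencing siRNA, sorted as live single cells with no Venus gate. Both ES groups were grown with LIF, and Max encodes the obligate partner of MYC, which also pairs with MGA. Against control cells, the siRNA and the Venus gate changed together and cannot be told apart. PGCs differ from both ES groups in strain, in origin and in having had no culture or transfection, and these too cannot be told apart.

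Levels are log2 signals with each array set to 0 at its 75th percentile. Max itself had levels of 3.77, 3.65 and 3.57 in the PGC arrays, 0.59, 0.83 and 1.13 in the knockdown arrays and 2.84, 2.73 and 2.85 in the control arrays. The knockdown arrays were thus lowest in the targeted gene without overlap, and Max fell by 1.96 on the log2 scale in knockdown against control cells (SE 0.14, adjusted p = 2.9e-05). Ddx4, the germ cell gene behind the reporter, was higher than in control cells by 3.71 in PGCs and by 2.64 in knockdown cells on the log2 scale. Pou5f1, which encodes the OCT4 protein shared by ES cells and PGCs, did not pass the test in either comparison (-0.11 and 0.04, adjusted p = 0.43 and 0.82). Replicate arrays correlated at 0.991 to 0.995, knockdown with control arrays at 0.966 to 0.974, and PGC with ES cell arrays at 0.866 to 0.882. No spot was saturated, and 58.2% to 67.6% of spots were well above background.

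The summed linear signal of 10 PGC markers was 107.4 to 126 in PGCs, 43.7 to 51.9 in knockdown cells and 15.7 to 20.2 in control cells. That of 10 ES cell markers was 70.1 to 87.6, 147 to 162 and 116 to 137 in the same order. In PGCs against control cells 3 of these ES cell markers rose and 6 fell. Nanog, Tdh and Zfp42 were higher by 1.91, 1.10 and 0.88 on the log2 scale (none called higher on the spike-in scale). Of the PGC markers 8 rose there and 1 fell, Tfap2c, by 1.90 (80% and 10%, beside the same shares of all genes). Markers of gonadal somatic cells, which surround PGCs, were present in the PGC arrays. Of 19 on the array, 16 to 19 were above background in each PGC array. That count was 11 to 14 in knockdown and 13 to 14 in control arrays. Their summed signal was 9.45 to 18.7 in PGC, 6.50 to 7.06 in knockdown and 6.50 to 7.94 in control arrays. Of 18 tested, 10 rose and 3 fell in PGCs against control cells (55.6% and 16.7%, against 43.2% and 32.4% of all genes). The 3 that fell were Gata6 (-3.50), Pdgfra (-2.56) and Wt1 (-0.996). Sox9, a defining gene of Sertoli cells, differed by 0.06 there (adjusted p = 0.86). Amh, made by Sertoli cells, was not well above background on any ES cell array and was at least 7.42-fold higher in PGCs than in control cells (adjusted p = 1.5e-05). Among 11 markers of blood and endothelium, the summed signal was 3.84 to 5.33 in PGCs, 3.41 to 4.81 in knockdown and 3.04 to 4.21 in control arrays. Those sums cover opposite differences: of 8 tested, 3 rose and 3 fell in PGCs against control cells (37.5% each, against 43.2% and 32.4% of all genes). The hemoglobin gene Hbb-bt, not well above background on any ES cell array, was at least 29.1-fold higher in PGCs (adjusted p = 2.6e-07) and Hba-a1 was higher by 3.89 on the log2 scale. The endothelial receptor gene Flt1 fell by 1.65 there, and Tie1 and Tek, not well above background on any PGC array, were at least 2.44-fold and 1.12-fold higher in control cells (adjusted p = 6.2e-05 and 1.5e-05). The 12 fibroblast markers summed to 49.98 to 51.9 in PGCs, 39.5 to 48.3 in knockdown and 50.6 to 52.2 in control arrays, but Fn1 alone, at mean levels of 5.61, 5.198 and 5.201 on the log2 scale in that order, makes up most of each sum. Of the 10 tested, 8 fell and 2 rose in PGCs against control cells (80% and 20%, against 32.4% and 43.2% of all genes). Vim was lower by 3.63, S100a4 by 3.82, Acta2 by 3.52 and Thy1 by 3.14 on the log2 scale. In knockdown against control cells 8 fell and none rose (0 also at an unadjusted p under 0.05 in limma). The falls are 80% of those tested, beside 21.9% of all genes, and 18.2% of all genes rose. The part of these marker differences in the repair gene results was not tested.

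After Max knockdown, the repair genes moved in both directions and by modest amounts. Atr, Atm, Brip1 and Brca2 rose most, and Chek2, Rad51d, Rad54b and Nbn fell most. A gene was called changed at an adjusted p under 0.05 in limma's fit over all 9 arrays, with Benjamini-Hochberg adjustment over all 20443 genes, and positive differences are higher in the group named first. Of the 33 repair genes, 8 rose and 10 fell, against a background of 18.2% of all tested genes that rose and 21.9% that fell, or 40.1% called in either direction. The repair genes were called in 54.5% of cases, none of them changed 2-fold, while 6.32% of all genes rose and 4.83% fell by 2-fold or more. The arrays of the groups did not overlap for 8 repair genes that were higher and 13 that were lower (background 23.4% and 30.7%). Their median log2 difference was -0.06, beside -0.07 over all genes tested, and they ranged from -0.92 for Chek2 to 0.96 for Atr. With 3 arrays a group, the smallest p of an exact permutation test on a single gene is 0.1, and a call depends on the spread that limma pools over genes.

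In PGCs against control ES cells, Atr, Rad50, Rbbp8, Fancc and Fancf rose at least 2-fold. Chek2, Rad51d and Bard1 (by its brightest probe) had the largest falls. In all, 13 repair genes rose and 7 fell (60.6% called), against a background of 43.2% and 32.4% (75.6% in either direction). The 5 rises of 2-fold or more compare with 19.8% of all genes, and no repair gene fell 2-fold, compared with 20.2% of all genes. The arrays did not overlap for 15 repair genes that were higher and 7 that were lower (background 45.0% and 33.5%). The median log2 difference was 0.18 for the repair genes and 0.18 for all genes. These are whole-population RNA measurements, in which fewer cells expressing a gene and less RNA per cell cannot be told apart. Both comparisons above use the same 3 control arrays, so the difference between PGCs and knockdown cells was tested directly.

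In PGCs against Max knockdown cells, 17 repair genes rose and 6 fell (69.7% called), against a background of 44.9% and 31.4% (76.3% in either direction). Fancb and Rad50 rose 2-fold or more, and 20.5% of all genes did. No repair gene fell 2-fold, against 19.7% of all genes, and the arrays did not overlap for 18 repair genes that were higher and 7 that were lower (background 46.2% and 32.4%). The median log2 difference was 0.29 for the repair genes and 0.21 for all genes. Rescaling on the spike-in transcripts moved the median of all genes in PGCs to -0.78 against control and to -0.75 against knockdown cells, with the repair genes at -0.77 and -0.68. Rises in PGCs given here are therefore relative to the other genes of an array. On the spike-in scale no repair gene rose in any of the 3 comparisons (0 also at an unadjusted p under 0.05), while 7 fell in PGCs against control and 6 against knockdown cells. There, against control cells, Blm, Brca2, Brip1, Xrcc2, Rad52, Fancg and Fancm turned to a negative difference, as did 15 of the 17 rises against knockdown cells, all but Fancb and Rad50. Rises made up 13.4% of all calls against control and 12.2% against knockdown cells on that scale, against 57.2% and 58.8% otherwise. After Max knockdown the same scaling left no repair gene called (0 also at an unadjusted p under 0.05), while the median of all genes there was -0.05. The mean spike-in signal itself differed by slide, from 0.59 to 0.78 on slide 1, from 1.65 to 1.83 on slide 2 and from 1.40 to 2.35 on the slides with PGCs.

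**Figure D1:**
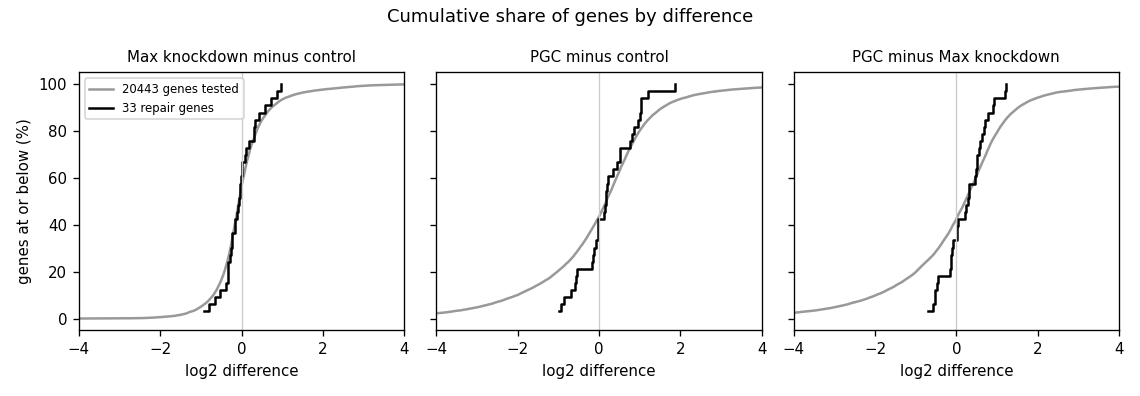
Cumulative share of genes (vertical axis, percent) at or below each log2 difference (horizontal axis, drawn from -4 to 4, beyond which some genes lie) for the 33 repair genes (black) and the 20443 genes tested (grey), in the 3 comparisons. The repair genes lie between -0.92 and 0.96 after Max knockdown and between -0.99 and 1.87 in PGCs against control cells, with no values in the long tails of the grey curves (on the spike-in scale the PGC curves shift to medians of -0.77 and -0.68).

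**Figure D2:**
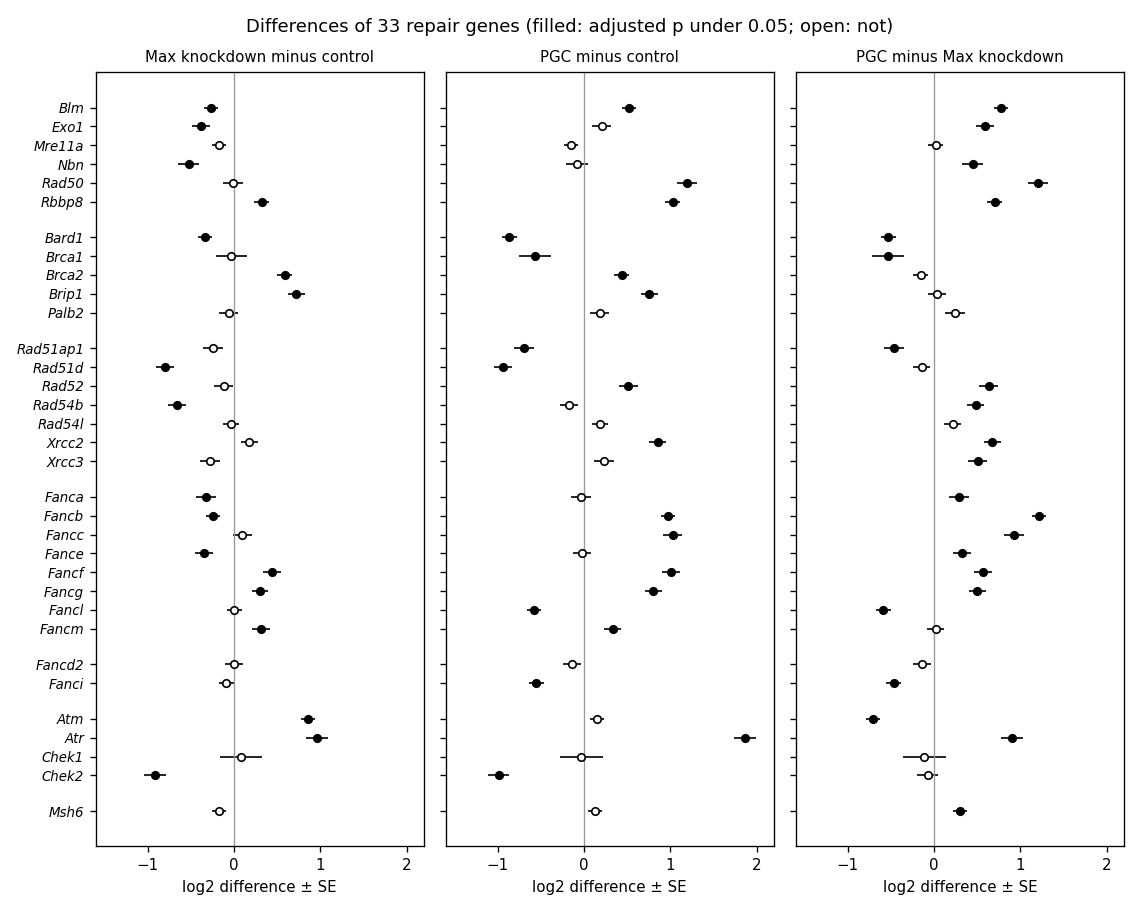
Log2 difference (horizontal axis) with its standard error for each of the 33 repair genes, in rows grouped from top to bottom as end resection and joint unwinding, BRCA mediators, strand exchange factors, Fanconi core complex, FANCD2-FANCI clamp, checkpoint kinases and mismatch recognition. Filled points passed the adjusted p threshold of 0.05, and Atr stands farthest right in both comparisons with control cells (on the spike-in scale most rises in PGCs turn to negative values).

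The checkpoint kinases carried the largest differences after Max knockdown. ATR is the kinase activated by single-stranded DNA at stalled forks, and ATM the one activated by double-strand breaks. Atr stood at 4.35, 3.97 and 4.17 in PGCs, at 3.34, 3.12 and 3.31 in knockdown cells and at 2.26, 2.17 and 2.45 in control cells. The 3 groups did not overlap, with PGCs highest and control cells lowest. Atr was 1.95-fold higher in knockdown than in control cells (log2 0.96, SE 0.12, adjusted p = 0.00056), 3.65-fold higher in PGCs than in control cells (log2 1.87, SE 0.12, adjusted p = 1.8e-06) and 1.87-fold higher in PGCs than in knockdown cells (adjusted p = 0.00017, -0.06 on the log2 scale with spike-in scaling).

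Atm stood at -0.30, -0.40 and -0.50 in PGCs, at 0.35, 0.32 and 0.24 in knockdown cells and at -0.54, -0.60 and -0.52 in control cells. Knockdown cells were high and the PGC arrays lay just above control arrays. Atm was 1.81-fold higher in knockdown than in control cells (log2 0.86, SE 0.08, adjusted p = 0.00013) and 1.63-fold lower in PGCs than in knockdown cells (log2 -0.70, adjusted p = 6.3e-05). In PGCs against control cells it differed by 0.15 (adjusted p = 0.12). A second Atm probe, with 10 spots on each array, gave 0.83 after knockdown (adjusted p = 0.00085) and 0.36 in PGCs against control cells (adjusted p = 0.02).

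Chek2 encodes the CHK2 kinase, which acts downstream of ATM. It stood at -0.70, -0.77 and -0.93 in PGCs, at -0.98, -0.56 and -0.64 in knockdown cells and at 0.12, 0.27 and 0.18 in control cells. Both PGCs and knockdown cells lay below control cells without overlap, and they overlapped with each other. Chek2 was 1.89-fold lower in knockdown than in control cells (log2 -0.92, SE 0.12, adjusted p = 0.00068) and 1.98-fold lower in PGCs than in control cells (log2 -0.99, SE 0.12, adjusted p = 9.4e-05). The difference between PGCs and knockdown cells was -0.07 (SE 0.12, adjusted p = 0.61). Chek1, the kinase downstream of ATR, did not pass the test in any comparison, with 0.08 after knockdown, -0.03 in PGCs against control and -0.11 in PGCs against knockdown cells. Its single probe was the dimmest used for a repair gene, with mean levels of -3.89 in PGCs, -3.78 in knockdown cells and -3.86 in control cells. Chek1 had the widest spread of the repair genes in PGCs and knockdown cells, with an SD of 0.50 and 0.30. Its SE of 0.25 leaves differences of that size undetected. Atrip, which encodes the partner protein that brings ATR to DNA, fell by 0.35 in knockdown cells (adjusted p = 0.0045) and by 0.33 in PGCs (adjusted p = 0.0022) against control cells on the log2 scale.

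**Figure D3:**
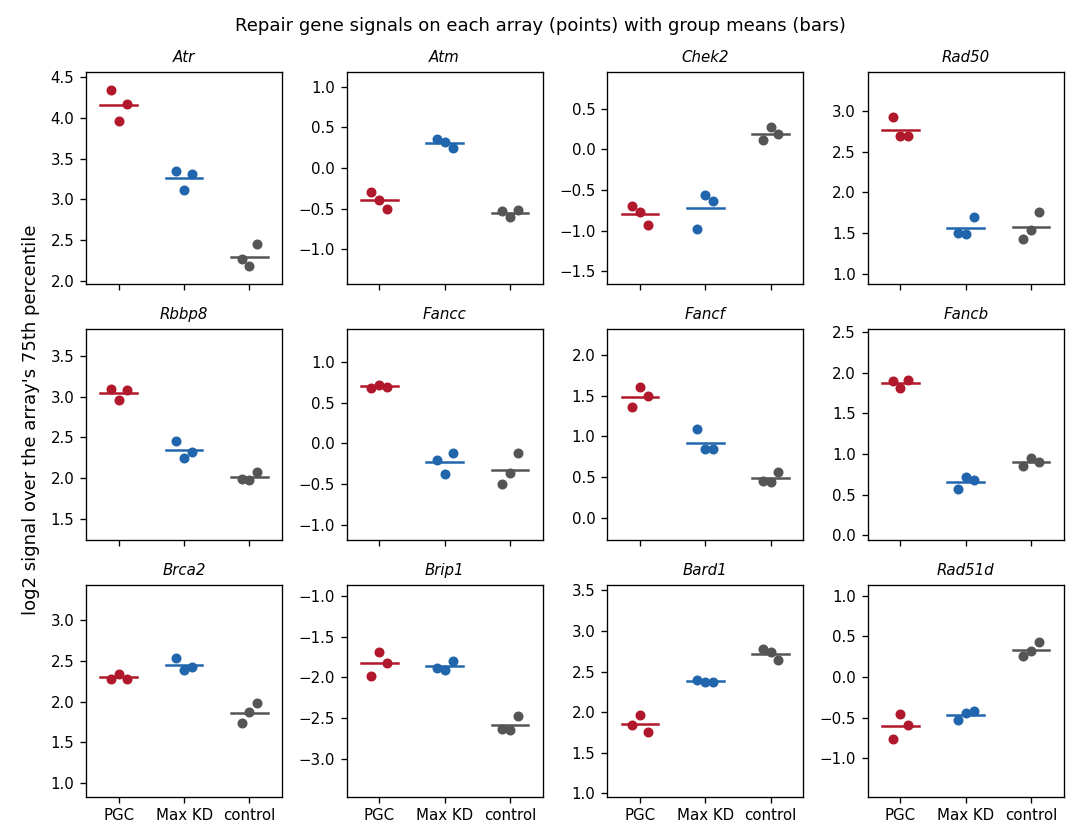
Level of 12 repair genes on each array (points) with group means (bars), as log2 signal over the array's 75th percentile on axes of equal span, with PGCs in red, Max knockdown cells (Max KD) in blue and control cells in grey. Atr, Rbbp8 and Fancf step down from PGCs through knockdown to control cells, Rad50, Fancc and Fancb are high in PGCs alone, Atm is high in knockdown cells alone, and Chek2 and Rad51d are low in both PGCs and knockdown cells.

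Among the genes for end resection and joint unwinding, PGCs were high in Rad50 and Rbbp8, and knockdown cells were low in Nbn, Exo1 and Blm. After Max knockdown 1 of these 6 genes rose and 3 fell (16.7% and 50%, beside 18.2% and 21.9% of all genes). In PGCs 3 rose and none fell against control cells, and 5 rose and none fell against knockdown cells. The 3 of 6 (50%) against control is near the 43.2% of all genes that rose, and 83.3% against knockdown cells stands beside 44.9%. None of the 6 was lower in PGCs in limma at an unadjusted p under 0.05 either. Rad50, the ATPase that bridges ends in the MRE11-RAD50-NBN complex, stood at 2.92, 2.70 and 2.69 in PGCs, at 1.504, 1.49 and 1.70 in knockdown cells and at 1.43, 1.54 and 1.76 in control cells. PGCs lay above both ES cell groups, which overlapped. Rad50 was 2.29-fold higher in PGCs than in control cells (log2 1.20, SE 0.12, adjusted p = 2e-05), 2.31-fold higher than in knockdown cells (adjusted p = 2e-05), and differed by -0.01 between knockdown and control cells (adjusted p = 0.96).

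Neither of the other subunits of that complex rose in PGCs against control cells. Mre11a, the nuclease subunit, did not pass the test in any comparison, with -0.17 after knockdown, -0.15 in PGCs against control cells and 0.02 in PGCs against knockdown cells. Nbn, the subunit that binds ATM, fell by 0.53 on the log2 scale in knockdown against control cells (adjusted p = 0.011) and was 0.45 higher in PGCs than in knockdown cells (adjusted p = 0.01, -0.52 with spike-in scaling). Rbbp8 encodes CtIP, which starts resection together with that complex. Its level was 3.095, 2.96 and 3.08 in PGCs, 2.45, 2.24 and 2.32 in knockdown cells and 1.99, 1.98 and 2.07 in control cells. The groups did not overlap, and Rbbp8 rose 2.04-fold in PGCs (log2 1.03, SE 0.09, adjusted p = 7.7e-06) and 1.25-fold in knockdown cells (log2 0.33, adjusted p = 0.018) against control cells. It was also 1.63-fold higher in PGCs than in knockdown cells (adjusted p = 8.6e-05, -0.26 on the log2 scale with spike-in scaling).

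Exo1, the exonuclease for long-range resection, fell by 0.39 in knockdown against control cells (adjusted p = 0.02). Blm, the helicase that dissolves joined duplexes, fell by 0.26 there (adjusted p = 0.033). In PGCs against control cells Blm rose by 0.52 (adjusted p = 0.00042, -0.44 with spike-in scaling) and Exo1 differed by 0.20 (adjusted p = 0.11). Both were higher in PGCs than in knockdown cells, by 0.59 for Exo1 and 0.78 for Blm (adjusted p = 0.00085 and 3.2e-05), with both negative on the spike-in scale.

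The BRCA mediators split. Brca2 and Brip1 rose and Bard1, by its brightest probe, fell against control cells, both after Max knockdown and in PGCs. Brca2, which acts on the trimmed single strands, stood at 2.27, 2.34 and 2.28 in PGCs, at 2.53, 2.39 and 2.43 in knockdown cells and at 1.73, 1.88 and 1.98 in control cells. PGCs and knockdown cells both lay above control cells without overlap. Brca2 was 1.503-fold higher in knockdown cells (log2 0.59, SE 0.09, adjusted p = 0.0012) and 1.35-fold higher in PGCs (log2 0.44, adjusted p = 0.002, -0.52 with spike-in scaling) than in control cells. The difference between PGCs and knockdown cells was -0.15 (SE 0.09, adjusted p = 0.15).

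Brip1, also called FANCJ, is a helicase that binds BRCA1. Its level was -1.99, -1.69 and -1.82 in PGCs, -1.89, -1.91 and -1.80 in knockdown cells and -2.64, -2.65 and -2.47 in control cells. Every PGC and knockdown array was above every control array. Brip1 rose 1.65-fold in knockdown cells (log2 0.72, SE 0.10, adjusted p = 0.00079) and 1.69-fold in PGCs (log2 0.76, adjusted p = 0.00014, -0.20 with spike-in scaling) against control cells, and PGCs differed from knockdown cells by 0.03 (adjusted p = 0.77).

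Bard1, which forms a ubiquitin ligase with BRCA1, stood at 1.84, 1.96 and 1.75 in PGCs, at 2.40, 2.37 and 2.37 in knockdown cells and at 2.77, 2.74 and 2.64 in control cells. By this brightest probe the groups did not overlap and PGCs were lowest. Bard1 fell 1.26-fold in knockdown cells (log2 -0.34, SE 0.08, adjusted p = 0.013) and 1.82-fold in PGCs (log2 -0.86, SE 0.08, adjusted p = 1.9e-05) against control cells. Other Bard1 probes gave -0.44 and -0.004 in PGCs against control cells (adjusted p = 0.0078 and 0.98), so whether Bard1 fell depended on the probe. Against knockdown cells the brightest probe gave -0.53 (adjusted p = 4e-04), and the others -0.08 and 0.27 (adjusted p = 0.53 and 0.24). The call against knockdown cells was lost with the mean of the probes. Brca1 itself differed by -0.03 after knockdown (adjusted p = 0.92) and was low in PGCs, at -2.79, -2.95 and -3.48, against -2.47, -2.38 and -2.77 in knockdown cells and -2.54, -2.38 and -2.61 in control cells. Its fall in PGCs was -0.57 against control cells (SE 0.19, adjusted p = 0.021) and -0.54 against knockdown cells (adjusted p = 0.026). Both calls were lost without PGC replicate 3 (-0.36 and -0.33). The call against control cells was also lost without control replicate 2, and that against knockdown cells without knockdown replicate 1 or 2. Palb2, the bridge between BRCA1 and BRCA2, did not pass the test in any comparison (-0.06, 0.18 and 0.24 in the order knockdown against control, PGCs against control and PGCs against knockdown). A second Palb2 probe of similar brightness did pass in PGCs, at 0.36 against control and 0.37 against knockdown cells (adjusted p = 0.021 and 0.019), so the Palb2 call depended on the probe.

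Promoter sequence was searched for E2F, E-box and CCAAT letters in every member with a promoter at hand. RefSeq promoter stretches on GRCm38.p6 were at hand for 26 of the 34 genes, 25 of them with a probe, and 250 bases before each start were searched on both strands. The E2F motif letters TTTCCCGC or TTTGGCGC occurred in 4 of the 25 (16.0%), against 1.3% of 32851 promoters of the same length. E2F factors are known to drive genes of S phase. The 4 matches are shown 5′ to 3′ on the strand of the gene with the motif, or its reverse complement, in capitals.
Bard1: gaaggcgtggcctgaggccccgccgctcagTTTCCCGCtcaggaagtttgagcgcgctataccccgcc
Chek2: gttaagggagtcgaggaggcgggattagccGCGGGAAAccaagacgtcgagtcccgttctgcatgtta
Brca2: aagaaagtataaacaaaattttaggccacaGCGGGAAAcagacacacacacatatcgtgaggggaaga
Fancg: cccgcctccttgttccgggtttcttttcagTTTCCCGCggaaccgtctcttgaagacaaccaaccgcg
They lie at chr1:71103144-71103211 (minus strand), chr5:110839801-110839868 (plus), chr5:150522423-150522490 (plus) and chr4:43010316-43010383 (minus). Their motifs begin 209, 152, 168 and 52 bases before the start. Against control cells Bard1 (by its brightest probe) and Chek2 fell while Brca2 and Fancg rose. Any part of these letters in the differences was not tested. The rise of Fancg after knockdown lost its call in 8 of 12 other settings. The E-box CACGTG, the letters that MYC-MAX and MGA-MAX dimers are known to bind, occurred in 0 of the 25 windows, against 6.02% of all promoters. The absence says only that these letters are not in these windows.

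The CCAAT letters occurred in 16 of the 25 windows (64.0%), against 33.8% of all promoters. Brip1, which rose 1.65-fold after knockdown, held 3 matches in the 120 bases before its start, and Atr, which rose 1.95-fold, held none there. Both stretches are shown 5′ to 3′ on the strand of the gene with the CCAAT letters, here as their reverse complement, in capitals.
Brip1: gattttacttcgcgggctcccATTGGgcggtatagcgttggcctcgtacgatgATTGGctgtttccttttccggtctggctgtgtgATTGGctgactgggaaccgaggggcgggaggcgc
Atr: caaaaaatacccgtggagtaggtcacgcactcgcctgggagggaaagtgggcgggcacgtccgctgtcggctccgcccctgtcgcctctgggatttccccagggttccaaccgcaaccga
They lie at chr11:86201194-86201313 (minus strand) and chr9:95857477-95857596 (plus strand). None of the capitals in these 6 stretches overlap. A match is a description of letters and no binding was measured.

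Of the strand exchange factors, Rad51d and Rad54b fell after Max knockdown and none of the 7 rose (0 also at an unadjusted p under 0.05 in limma). RAD51D is a subunit of complexes that stabilise the filament on single strands. Rad51d stood at -0.77, -0.45 and -0.59 in PGCs, at -0.53, -0.44 and -0.42 in knockdown cells and at 0.25, 0.33 and 0.43 in control cells. PGCs and knockdown cells overlapped and both were below control cells. Rad51d was 1.74-fold lower in knockdown than in control cells (log2 -0.80, SE 0.10, adjusted p = 0.00051) and 1.92-fold lower in PGCs than in control cells (log2 -0.94, adjusted p = 3.6e-05). A second, dimmer Rad51d probe was at -7.51, -6.73 and -6.57 in PGCs, at -4.01, -4.03 and -3.88 in knockdown cells and at -3.36, -3.42 and -3.09 in control cells. It was not well above background on any PGC array, so by this probe control cells were at least 3.67-fold higher than PGCs and knockdown cells at least 2.28-fold higher than PGCs. Such bounds set the bright group's mean against the lowest signal well above background on each dim array, or the dim probe's own signal where that was higher.

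Rad54b, a DNA translocase of strand exchange, stood at 1.47, 1.48 and 1.27 in PGCs, at 0.92, 0.98 and 0.88 in knockdown cells and at 1.64, 1.69 and 1.42 in control cells. Knockdown cells were lowest without overlap. It was 1.58-fold lower in knockdown than in control cells (log2 -0.66, SE 0.10, adjusted p = 0.0013), 1.40-fold higher in PGCs than in knockdown cells (adjusted p = 0.0022, -0.48 on the log2 scale with spike-in scaling), and differed by -0.18 between PGCs and control cells (adjusted p = 0.15). Its relative Rad54l did not pass the test in any comparison (-0.03, 0.18 and 0.22 in the order knockdown against control, PGCs against control and PGCs against knockdown).

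Xrcc2 and Xrcc3, whose products join similar complexes, were higher in PGCs than in knockdown cells, by 0.68 and 0.51 (adjusted p = 0.00022 and 0.0032), with both differences negative on the spike-in scale. Xrcc2 also rose by 0.85 in PGCs against control cells (adjusted p = 5e-05, -0.10 with spike-in scaling). Rad51ap1, whose protein stimulates strand invasion, fell by 0.70 in PGCs against control cells (adjusted p = 0.00059) and by 0.46 against knockdown cells (adjusted p = 0.0063). Rad52, whose protein anneals single strands, rose by 0.51 in PGCs against control cells (adjusted p = 0.0027, -0.44 with spike-in scaling) and by 0.63 against knockdown cells (adjusted p = 0.00078, -0.33 with spike-in scaling). After knockdown none of these 4 passed the test, with differences from -0.28 for Xrcc3 to 0.18 for Xrcc2, but with slide as a block Xrcc3 (adjusted p = 0.038) and Rad51ap1 (-0.24, adjusted p = 0.049) did.

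In the Fanconi core complex, 3 of the 8 genes rose and 3 fell after Max knockdown, and 5 rose and 1 fell in PGCs against control cells. These are 37.5% and 37.5% after knockdown, beside 18.2% and 21.9% of all genes, and 62.5% and 12.5% in PGCs, beside 43.2% and 32.4%. PGCs were highest in Fancc, Fancf and Fancb. FANCC, FANCE and FANCF form one arm of the complex, which meets the clamp protein. Fancc stood at 0.69, 0.71 and 0.70 in PGCs, at -0.20, -0.37 and -0.11 in knockdown cells and at -0.49, -0.37 and -0.12 in control cells. PGCs lay above both ES cell groups, which overlapped. Fancc was 2.04-fold higher in PGCs than in control cells (log2 1.03, SE 0.11, adjusted p = 4.4e-05) and 1.91-fold higher than in knockdown cells (adjusted p = 8.4e-05, -0.04 on the log2 scale with spike-in scaling).

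Fancf stood at 1.36, 1.61 and 1.502 in PGCs, at 1.08, 0.84 and 0.84 in knockdown cells and at 0.45, 0.44 and 0.56 in control cells. The 3 groups did not overlap. Fancf rose by 1.00 on the log2 scale in PGCs (SE 0.10, adjusted p = 2.7e-05) and by 0.44 in knockdown cells (adjusted p = 0.01) against control cells, and PGCs were 0.57 above knockdown cells (adjusted p = 0.00096, -0.40 with spike-in scaling). Fance, the third gene of this arm, fell by 0.34 after knockdown (adjusted p = 0.028) and differed by -0.02 in PGCs against control cells (adjusted p = 0.86).

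FANCB, FANCL and FAAP100 form the catalytic module, in which FANCL is the ubiquitin ligase. Fancb stood at 1.90, 1.80 and 1.91 in PGCs, at 0.57, 0.72 and 0.68 in knockdown cells and at 0.85, 0.95 and 0.90 in control cells. The groups did not overlap, and knockdown cells were lowest. Fancb was 1.96-fold higher in PGCs than in control cells (log2 0.97, SE 0.08, adjusted p = 6.3e-06), 2.32-fold higher in PGCs than in knockdown cells (adjusted p = 1.7e-06) and 1.18-fold lower in knockdown than in control cells (log2 -0.24, adjusted p = 0.038). Faap100, which is outside the list of members, stood at -0.01, -0.17 and -0.05 in PGCs, at -2.25, -2.06 and -1.92 in knockdown cells and at -2.27, -2.32 and -2.17 in control cells. It was higher in PGCs than in control cells by 2.18 on the log2 scale (SE 0.10, adjusted p = 2.7e-07), without overlap.

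Fancl went the other way by its brightest probe, which was at 1.22, 1.38 and 1.32 in PGCs, at 2.01, 1.84 and 1.83 in knockdown cells and at 1.91, 1.86 and 1.89 in control cells. PGCs were lowest, and the probe fell by 0.58 on the log2 scale against control cells (adjusted p = 0.00026). A second Fancl probe rose by 0.35 in the same comparison (adjusted p = 0.0032) and by 0.46 after knockdown (adjusted p = 0.0021), where the first gave 0.01. The direction of Fancl in PGCs is thus unsettled, and which transcripts the probes detect was not tested.

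Of the remaining core genes, Fancg, which binds FANCA, rose by 0.30 after knockdown (adjusted p = 0.035) and by 0.80 in PGCs against control cells (adjusted p = 7e-05, -0.15 with spike-in scaling). Fancm, the translocase that anchors the complex on DNA, rose by 0.31 after knockdown (adjusted p = 0.037) and by 0.33 in PGCs against control cells (adjusted p = 0.015, -0.62 with spike-in scaling). That call in PGCs was lost without control replicate 2 (adjusted p = 0.059). Fanca fell by 0.32 after knockdown (adjusted p = 0.048) and differed by -0.03 in PGCs against control cells (adjusted p = 0.79). In PGCs against knockdown cells, Fancg, Fance and Fanca were higher by 0.50, 0.32 and 0.29 (adjusted p = 0.0013, 0.019 and 0.041), and all 3 were negative on the spike-in scale. The calls of Fanca, Fancb and Blm after knockdown were each lost when any 1 of the 6 ES cell arrays was left out, with adjusted p from 0.057 to 0.14. That of Fancg was lost without any of them but knockdown replicate 1, and that of Fancm without any but control replicate 1. Fance lost its call without control replicate 2 or 3 or knockdown replicate 1 or 2, Exo1 without control replicate 2 or 3 or knockdown replicate 2, and Rbbp8 without control replicate 1 or 2 or knockdown replicate 1. Against knockdown cells, the rise of Fanca in PGCs was lost without any 1 knockdown array or PGC replicate 2, and that of Fance without knockdown replicate 1 or 2 or PGC replicate 2 or 3.

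Of the 2 clamp genes, 1 fell in PGCs against control and against knockdown cells, beside 32.4% and 31.4% of all genes. Neither was called after knockdown, beside 40.1% of all genes, and 2 genes are too few to set against these shares. Fancd2 did not pass the test in any comparison, with 0.00 after knockdown, -0.13 in PGCs against control cells and -0.14 in PGCs against knockdown cells. Fanci fell by 0.55 in PGCs against control cells (adjusted p = 0.00036) and by 0.47 against knockdown cells (adjusted p = 0.00099), and differed by -0.09 after knockdown (adjusted p = 0.46). Msh6, which recognises mismatched bases in duplex DNA, was higher in PGCs than in knockdown cells by 0.30 (adjusted p = 0.0083, -0.67 with spike-in scaling) and did not pass the test in the comparisons with control cells (-0.17 after knockdown and 0.13 in PGCs).

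Several probes were present for 10 of the 33 genes, with 11 probes besides the brightest. After knockdown, 10 of the 11 gave a difference of the same sign as the brightest probe and none was apart from it by over 1.5-fold. In PGCs against control cells 9 of 11 had the same sign and 4 were apart by over 1.5-fold, for Bard1, Fancc, Fancl and Rad51d. The second Fancc probe rose more than the brightest, by 2.35 on the log2 scale (adjusted p = 1.6e-05). Second probes of Rad50 and Xrcc2 also rose in PGCs against control cells, by 0.72 and 1.12 (adjusted p = 0.00015 and 4.4e-05).

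**Figure D4:**
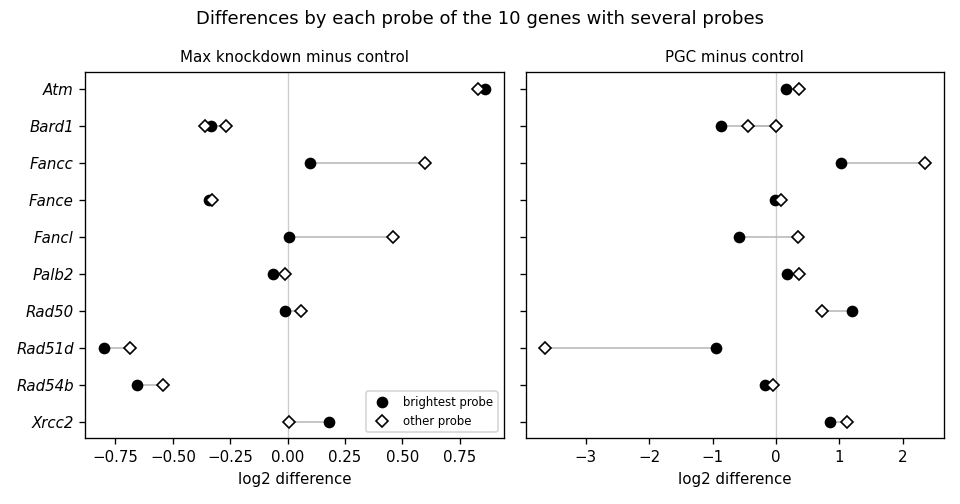
Log2 difference (horizontal axis, scales differ between panels) given by each probe of the 10 repair genes with several probes, for Max knockdown minus control cells and PGC minus control cells. Filled circles are the brightest probe, which the results use, and open diamonds are other probes. In PGCs the probes of Fancl lie on opposite sides of 0 at -0.58 and 0.35, and the low value of the second Rad51d probe was measured at background (with spike-in scaling differences in PGCs shift downward).

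Slides held several groups only for the ES cells. Slide 1 carried 2 knockdown and 2 control arrays and slide 2 carried 1 of each, while PGCs were on slides of their own. All 18 repair genes called after knockdown had the same sign on both slides. This was fixed in advance, as the knockdown and control arrays did not overlap for any of them. The sizes on each slide were not fixed in this way. Atr differed by 1.01 on slide 1 and 0.87 on slide 2, Atm by 0.91 and 0.77, and Brip1 by 0.75 and 0.68. Chek2 differed by -0.96 and -0.82, Rad51d by -0.77 and -0.84, Rad54b by -0.71 and -0.55, and Nbn by -0.54 and -0.50. With slide as a block, 7 repair genes rose and 11 fell after knockdown: Xrcc3 and Rad51ap1 were gained as falls, and Fancb and Fancg lost their calls (adjusted p = 0.051 and 0.055). Slide 1 alone left 5 rises, of Atr, Atm, Brip1, Brca2 and Fancf, and 4 falls, of Chek2, Rad51d, Rad54b and Nbn. Slide 2 alone has 1 array a group and allows no test. For PGCs, slide as a random block gave 13 rises and 6 falls against control cells, and 16 and 5 against knockdown cells. A fixed effect of the PGC slides cannot be told apart from the group.

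**Figure D5:**
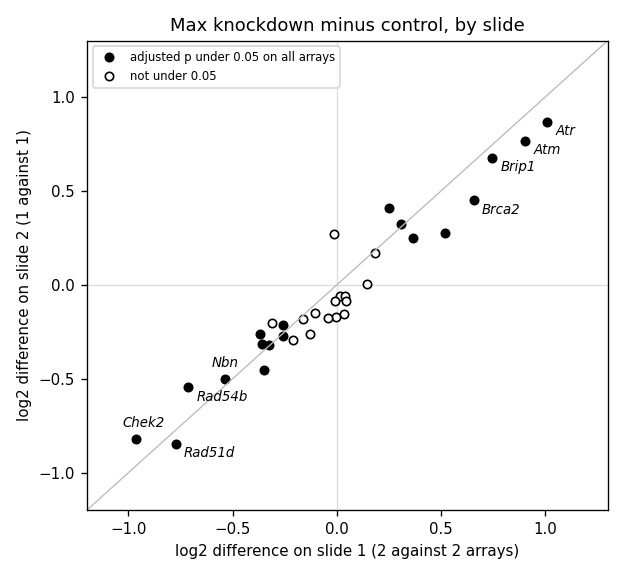
Log2 difference between Max knockdown and control cells for the 33 repair genes, computed from slide 1 (horizontal axis, 2 against 2 arrays) and from slide 2 (vertical axis, 1 against 1 array), with the line of equal values. Filled points, called over all arrays, lie in the same sign quadrants on both slides, from Chek2 at -0.96 and -0.82 to Atr at 1.01 and 0.87. Their shared sign follows from knockdown and control arrays that did not overlap.

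Between replicates, the median SD of the repair genes was 0.12 in PGCs, 0.09 in knockdown cells and 0.09 in control cells on the log2 scale, beside 0.15, 0.15 and 0.14 over all genes. The SE of their differences ran from 0.08 to 0.25 with a median of 0.10.

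Beyond the members, 65 other genes of the same repair pathways, such as further Fanconi-associated, recombination, checkpoint and mismatch repair genes, were tested. After knockdown 14 rose and 12 fell, with a median of 0.00, beside the 18.2% and 21.9% of all genes. Recql, a helicase related to Blm, rose by 1.08 (adjusted p = 3.6e-05), Gen1, which cuts joined duplexes, by 0.85 (adjusted p = 0.00037), and Pms2, of mismatch repair, by 0.60 (adjusted p = 0.00083). Brcc3, a deubiquitinase of the BRCA1-A complex, fell by 0.78 (adjusted p = 0.00021), Pms1 by 0.70 and Rev1, a translesion polymerase, by 0.62 on the log2 scale. In PGCs, 34 of them were higher and 17 lower than in control cells (median 0.32). These are 52.3% and 26.2%, beside 43.2% and 32.4% of all genes. Trp53bp1, whose protein 53BP1 restrains resection, rose there by 1.67 and Recql by 1.42, and Mad2l2, a 53BP1-pathway and translesion subunit, fell by 1.47, Hus1, of the checkpoint clamp, by 1.14 and Brcc3 by 1.03. Trp53bp1 stood at 3.13, 2.80 and 2.94 in PGCs, at 1.31, 1.45 and 1.41 in knockdown cells and at 1.27, 1.31 and 1.28 in control cells, with PGCs apart from both.

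Against knockdown cells, 30 of the 65 rose in PGCs and 17 fell, with a median of 0.18. These are 46.2% and 26.2%, beside 44.9% and 31.4% of all genes. Faap100, Trp53bp1 and Fbh1, a helicase of recombination, rose by 2.001, 1.57 and 1.25. Faap24, a partner of FANCM, fell by 1.53, Mad2l2 by 1.22 and Hus1 by 1.09. Faap24 was at -3.54, -3.67 and -3.90 in PGCs, at -2.18, -2.23 and -2.10 in knockdown cells and at -2.74, -2.72 and -2.62 in control cells. Knockdown cells were thus highest and PGCs lowest, without overlap.

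Of 26 proliferation genes tested, 2 rose and 18 fell in PGCs against control cells, with a median of -0.51, and 4 rose and 17 fell against knockdown cells. The falls are 69.2% and 65.4% of the list, beside 32.4% and 31.4% of all genes, and the rises 7.69% and 15.4%, beside 43.2% and 44.9%. On the spike-in scale 18 and 17 fell and none rose in either comparison (0 also at an unadjusted p under 0.05 in limma). Rrm2, a subunit of the enzyme that makes deoxynucleotides, fell by 2.60 and Ccne1, cyclin E1, by 2.69 against control cells, while Ccnb1 and Ccnb2, the mitotic cyclins, rose by 0.32 and 0.36 (neither called higher on the spike-in scale). After knockdown none rose (0 also at an unadjusted p under 0.05 in limma) and 5 fell, with Cdt1, which licenses replication origins, lower by 0.61 (adjusted p = 0.0087) and Rrm1 by 0.33 (adjusted p = 0.023). These falls are 19.2% of the list, near the 21.9% of all genes that fell, while 18.2% of all genes rose. The summed linear signal of this list was 462 to 539 in PGCs, 575 to 604 in knockdown and 604 to 685 in control arrays. Its part in the repair gene results was not tested.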

How the data were processed

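RNA of 9 samples (3 PGC, 3 Max knockdown, 3 control) was labelled with Cy3 from 100 ng, per the labels' protocols. Per the file headers, the deposited scanner output came from Agilent Feature Extraction 10.7.3.1 and gives a background-subtracted, detrended intensity per spot. The deposited value table holds log2 values of the same arrays with scale and centring unstated. It matched the scanner signals after log2, a 75th percentile scaling and centring of each probe on its median (r from 0.99994 to 0.99999), and its column medians were 0, 0.34 and 0.39 in PGC, -0.12, 0 and 0 in knockdown and -0.02, -0.07 and 0 in control arrays.

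Here spots of a probe were averaged after leaving out controls and 65 probes with outlier flags. Signals were put on the log2 scale, less the 75th percentile of their array. Of the probes, 26012 were named through RefSeq accessions (13352 were not), and the brightest probe by mean over all arrays stood for a gene. Tested genes had to exceed background clearly on every array of 1 or more groups. The fit, by limma 3.58.1 (lmFit, eBayes; R 4.3.3), covered all 9 arrays. The steps were tested on simulated data. The number of arrays limits the precision.

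Members and lists were chosen with earlier results of these data known. All members are named. Array values are given for members called at 2-fold without overlap, for those with the lowest and highest difference of a comparison, and for probes at background. Those of Brca1, Brca2, Brip1, Bard1, Rad51d, Rad54b, Fancl, Faap100, Faap24, Trp53bp1 and Nhej1 were added after their values were seen. From the other lists, the genes with the smallest p in each direction are named (3 for repair, 2 for proliferation and end joining), and Atrip and the marker genes other than Max, Ddx4 and Pou5f1 were named after their values were seen. A gene that the rule also names is not reported here.

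The header names build mm9 for the array, and the promoter sequences are RefSeq's on GRCm38.p6, so no coordinates of array probes are given. The mean signal planned for the normexp alternative is absent from the columns used, and the median signal took its place. Slide, replicate number, filter, scaling and probe choice were varied.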

Additional observations from a re-analysis of the deposited data

How the results depend on the processing

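With 3 arrays a group, depth is set by spot brightness, and all 33 repair genes were above background throughout. After knockdown, 10 of the 18 calls were kept without each ES cell array in turn and 9 of those also under every other alternative but spike-in scaling and normexp. Of the calls in PGCs, 18 of 20 against control and 20 of 23 against knockdown cells were kept without each array of the groups compared. Repair genes that rose and fell after knockdown numbered 8 and 10, against 0 and 0 with spike-in scaling, 0 and 0 with normexp on median signals, 5 and 5 with no filter, 5 and 4 on slide 1 alone, and 5 to 6 and 5 to 7 when 1 array was left out (5 rises without control replicate 2, and 5 falls without control replicate 2 or 3 or knockdown replicate 2). At an unadjusted p under 0.05 in limma, 0 rose and 0 fell with spike-in scaling and 2 and 5 with normexp. The 14 rises and 12 falls of other repair pathway genes became 0 and 0 with spike-in scaling, 0 and 1 with normexp, 6 and 6 on slide 1 alone, 7 falls with no filter, and 10 to 12 and 7 to 10 without 1 array. Against control cells, the 13 rises and 7 falls of repair genes in PGCs became 0 rises with spike-in scaling and 7 and 3 with normexp. The 34 and 17 of the other repair genes became 3 rises, and 15 and 6. Against knockdown cells, 17 and 6 became 0 rises with spike-in scaling and 9 and 1 with normexp, and 30 and 17 became 0 rises, and 18 and 6. Rises among all calls after knockdown moved to 71.2% with spike-in scaling and 63.9% with normexp, against 45.3%. The cause was not tested.

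Leaving out an array gave 13 to 14 rises and 6 to 8 falls of repair genes in PGCs against control cells, 33 to 34 and 17 to 18 for the others, and 15 to 17, 5 to 6, 28 to 31 and 14 to 16 against knockdown cells. With normexp, Nbn turned to 0.30 after knockdown, and against knockdown cells Nbn turned to -0.29 and Fancg to -0.086 in PGCs. Normexp without 14 spots dimmer than their local background gave 7 and 7, 13 and 6, and 16 and 5 in the 3 comparisons. Rises then made up 48.1% of all calls after knockdown. With those spots kept, normexp gave 0 and 0, 7 and 3, and 9 and 1. The spots were chosen after seeing the data.

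With spike-in scaling, the reversed differences in PGCs against control cells were -0.44 for Blm, -0.52 for Brca2, -0.20 for Brip1, -0.10 for Xrcc2, -0.44 for Rad52, -0.15 for Fancg, -0.62 for Fancm, -0.10 for Max and -0.77 for the median repair gene. Against knockdown cells they were -0.52 for Nbn, -0.26 for Rbbp8, -0.38 for Exo1, -0.19 for Blm, -0.29 for Xrcc2, -0.46 for Xrcc3, -0.33 for Rad52, -0.48 for Rad54b, -0.68 for Fanca, -0.037 for Fancc, -0.64 for Fance, -0.40 for Fancf, -0.47 for Fancg, -0.062 for Atr, -0.67 for Msh6 and -0.68 for the median.

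Replicate numbers recur across groups without a stated meaning. Same-numbered knockdown and control arrays deviated together (r = 0.37 and 0.39, both pairs on slide 1), as did control replicate 3 and knockdown replicate 4 on slide 2 (r = 0.51), while differently numbered arrays on slide 1 did not (r = -0.03 and -0.07). Only 2 numbers are shared by these groups and no label states a pairing, so the numbers were not taken as pairing. PGC arrays and same-numbered ES cell arrays had r from -0.03 to 0.03. With the replicate block, 5 repair genes rose and 5 fell after knockdown, and 6 and 6 of the other repair genes. No other array shares the number of knockdown replicate 4, so this block leaves that array without weight. The block also joins ES cell arrays with same-numbered PGC arrays.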

Other observations

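End joining genes, which rejoin broken ends without a template, were listed beside recombination. Of 12 tested, 8 rose and 2 fell in PGCs against control cells, with a median of 0.51, and 9 rose and 2 fell against knockdown cells, with a median of 0.64. The rises are 66.7% and 75% of the list, beside 43.2% and 44.9% of all genes. Nhej1, which encodes the ligation factor XLF, stood at 2.56, 2.58 and 2.47 in PGCs, at 0.69, 0.68 and 0.85 in knockdown cells and at 0.86, 0.82 and 0.93 in control cells. PGCs were apart from both ES cell groups, by 1.67 on the log2 scale against control (SE 0.08, adjusted p = 3.4e-07). Xrcc4, the scaffold of the ligase, rose by 1.23 (adjusted p = 2.5e-06), while Polm, a gap-filling polymerase, fell by 1.298 and Paxx, a factor that binds Ku, by 1.39 against control cells. After Max knockdown 2 rose and 4 fell (16.7% and 33.3%, beside 18.2% and 21.9% of all genes). Xrcc4 and Lig4, the ligase, rose by 0.46 and 0.38 (adjusted p = 0.0034 and 0.019), and Xrcc6, which encodes Ku70, and Xrcc1 fell by 0.37 and 0.33 (adjusted p = 0.0098 and 0.012). Rises in PGCs are relative to the 75th percentile of each array, and on the spike-in scale none of the 12 rose and 2 fell in each comparison with PGCs (0 rises also at an unadjusted p under 0.05 in limma). With normexp on median signals, 3 rose and 2 fell against control cells, and 5 and 2 against knockdown cells.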
